A study of Mus musculus with 24 samples.

Results

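Hippocampus of wild-type C57BL/6 mice was compared with the mean of wild-type cerebellum, cortex and olfactory bulb, each of the 3 regions counting equally, by sequencing total RNA after removal of ribosomal RNA. The libraries were chosen by their labels alone: 3 from hippocampus, 3 from cerebellum, 3 from cortex and 3 from olfactory bulb, 12 of the 24 libraries of the series. The remaining 12 libraries came from the same 4 regions (3 each) of Cdr1as knockout mice (Cdr1as is a neuronal circular RNA rich in miR-7 sites) and were used to repeat the contrast. No mouse received a treatment according to the labels, which give no age or sex and do not say whether the replicates of a region are separate animals, so the spread behind the p-values is that between libraries and could be technical only.

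The hippocampus is a folded part of the forebrain cortex whose principal neurons form a chain: granule cells of the dentate gyrus project through mossy fibres to CA3, CA3 projects to CA1, and CA1 projects to the subiculum, with the small CA2 field between CA3 and CA1. Its principal cells are glutamatergic, its local inhibition comes from several classes of GABA interneuron, and the dentate gyrus goes on making neurons in the adult. The cerebellum is built mainly of granule cells and Purkinje cells, the olfactory bulb of mitral and tufted cells with very many inhibitory granule cells, and the cortex shares the telencephalic origin of the hippocampus. In pieces of whole tissue, fewer cells of a type and less RNA per cell cannot be told apart.

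Total gene counts ranged over 7.4 to 30.46 M per wild-type library, and 15.89 to 26.43 M in the 3 hippocampal ones; olfactory bulb WT 1 was the shallowest, with 16483 genes detected. Reads in no annotated gene made up 20.3% to 62.9% of all reads tallied, and the share differed between regions and between replicates. It was 37.0%, 51.3% and 52.6% in hippocampus WT 1, 2 and 3, and 20.3%, 56.2% and 34.9% in cortex. In cerebellum and olfactory bulb it was 53.7% to 62.9%. Levels are given as CPM, gene counts scaled to the depth of the library after TMM (a correction for library composition). CPM is not corrected for gene length, so levels are compared between libraries and not between genes. Cdr1as lay at 0 to 0.659 CPM in the 12 knockout libraries and at 368 to 4271 CPM in the 12 wild-type libraries. Libraries differed in choroid plexus, the secretory tissue of the ventricles that lies against the hippocampus: the summed level of 14 of its markers was 2369, 43.4 and 2032 CPM in hippocampus WT 1, 2 and 3, against 1171, 1196 and 30.2 CPM in cerebellum, 289, 103 and 31.9 CPM in cortex, and 56.8, 51.5 and 55.3 CPM in olfactory bulb. None of the 14 markers was at 0 across a whole region.

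Of 16995 genes tested, 2602 (15.3%) were higher and 1793 (10.6%) were lower in hippocampus than in the mean of the other regions, at an adjusted p under 0.05 in edgeR's quasi-likelihood test, 4395 (25.9%) in all. At a difference of at least 2-fold the counts were 1057 higher (6.22%) and 572 lower (3.37%). The contrast averages log2 differences, so that a gene nearly absent from 1 region can pass without exceeding the others. Of the 1057 genes, 936 also passed against cerebellum and 830 against olfactory bulb, but 309 against cortex; 485 passed against cerebellum and olfactory bulb without passing against cortex. Against single regions, 3868 genes (22.8%) were higher and 3294 (19.4%) lower in hippocampus than in cerebellum, 3057 (18%) higher and 2681 (15.8%) lower than in olfactory bulb, and 630 (3.71%) higher and 1031 (6.07%) lower than in cortex. These contrasts share the 3 hippocampal libraries.

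A stricter call asked that hippocampus pass in the same direction against each region, taking the largest of the 3 p-values. By that rule 194 genes (1.14% of those tested) were above each region and 141 (0.83%) below each. They included 175 of the 1057 genes (16.6%) and 109 of the 572 (19.1%). All 3 hippocampal libraries exceeded all 9 others for 637 genes (3.75%), and fell below all 9 for 426 genes (2.51%). The count above each region was 128 without hippocampus WT 2, and the count below each was 85 without hippocampus WT 1.

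**Figure D1:**
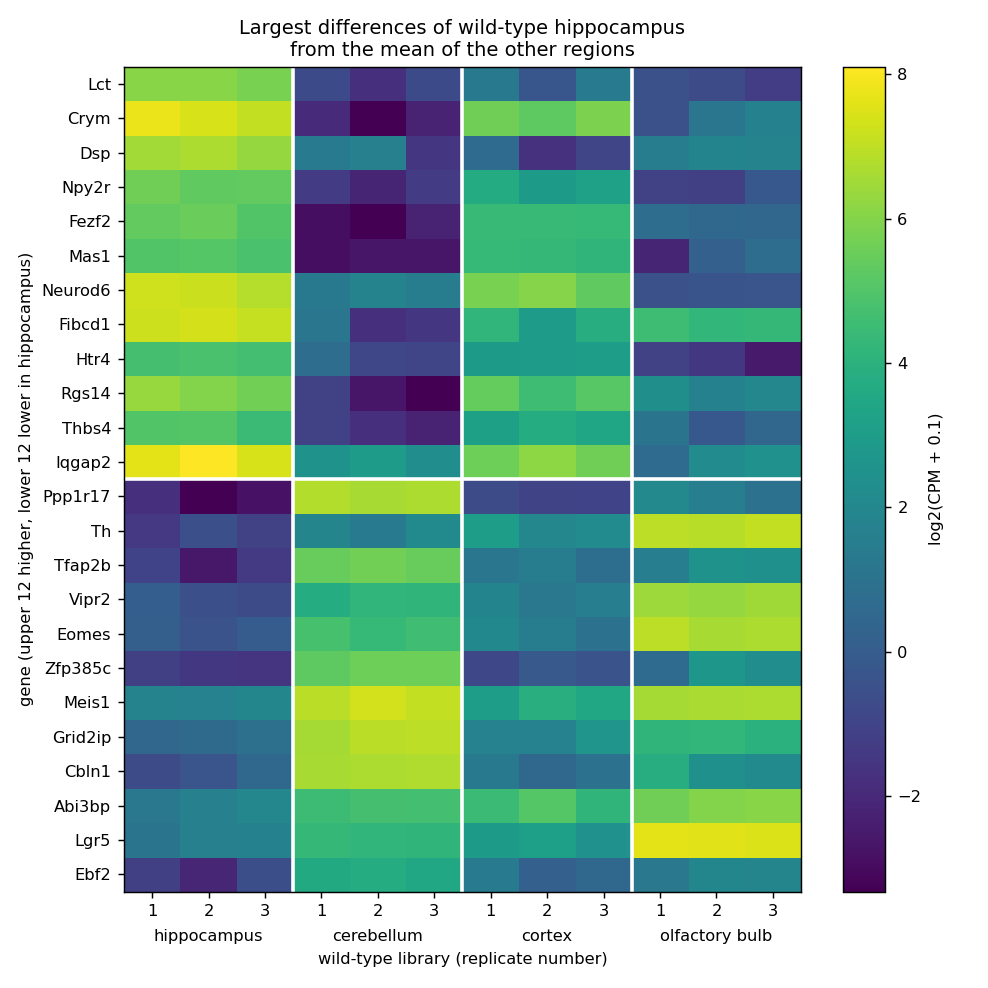
Level of the 12 genes with the largest positive and the 12 with the largest negative difference of wild-type hippocampus from the mean of the other regions, among called genes with a mean log2 CPM of at least 1 whose hippocampal libraries did not overlap the other 9, as log2(CPM + 0.1) by colour, in the 12 wild-type libraries (columns, by region and replicate). The separation of hippocampus follows from that choice; for several upper genes the cortex comes next (Mas1 reached 20.2 CPM there, against 28.1 CPM in the lowest hippocampal library).

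Genes were named first by size of difference among called genes that averaged at least 1 on the log2 CPM scale and whose 3 hippocampal libraries did not overlap the 9 others, so their separation is part of the choice and genes with larger fitted differences that missed either condition are left out. The largest rise by that rule belonged to Lct, lactase, better known as the milk sugar enzyme of the gut, which is also a transcript of dentate granule cells. Lct had 68.4, 66.6 and 55.2 CPM in hippocampus, against 0.188 to 2.43 CPM (median 0.521) in the 9 other libraries. The log2 fold change was 6.43 ± 0.22 (SE, n = 3 hippocampal and 9 other libraries; edgeR adjusted p = 2.75e-10), with no overlap, and cortex came nearest. Dsp, desmoplakin, which anchors desmosomes to intermediate filaments, followed the same pattern with 92.4, 104 and 78.1 CPM in hippocampus against 0.206 to 3.47 CPM (median 2.6) elsewhere. Its log2 fold change was 5.76 ± 0.34 (edgeR adjusted p = 4.02e-08), and for Dsp the olfactory bulb came nearest, at a difference of 4.82.

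Crym, a cytosolic protein that binds thyroid hormone, had 220, 170 and 135 CPM in hippocampus. The other libraries spanned 0 to 57.4 CPM (median 2.17), the highest being cortical, and the log2 fold change was 6.25 ± 0.24 (edgeR adjusted p = 6.00e-10). Crym was listed here with meningeal genes and is also a neuronal gene. Fibcd1, a membrane receptor for acetylated sugars and a marker of CA1, had 153, 167 and 137 CPM in hippocampus against 0.188 to 23.3 CPM (median 13.7) elsewhere; it rose by 4.52 ± 0.31 on the log2 scale (edgeR adjusted p = 2.88e-07). Both genes were above each of the other regions.

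Npy2r, Htr4 and Mas1, all G protein-coupled receptors, were also among the 12. Npy2r, a presynaptic receptor for neuropeptide Y, had 49.6, 40.2 and 41.6 CPM in hippocampus against 0.126 to 13 CPM (median 0.375) elsewhere. Htr4, a serotonin receptor that raises cyclic AMP, had 26.3, 28.2 and 25.8 CPM in hippocampus against 0.0792 to 8.42 CPM (median 0.439). Mas1, the receptor for angiotensin-(1-7), had 32.3, 34.1 and 28.1 CPM in hippocampus against 0.0326 to 20.2 CPM (median 1.04). Their log2 fold changes were 5.34 ± 0.20, 4.49 ± 0.27 and 4.95 ± 0.25 (edgeR adjusted p = 3.99e-10, 2.54e-08 and 6.20e-09). Npy2r and Htr4 exceeded every region, whereas Mas1 did not pass against cortex (0.73, edgeR adjusted p = 0.107) although its libraries did not overlap.

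Among the other 5 genes of this group, Fezf2 and Neurod6, transcription factors of forebrain projection neurons, rose by 5.10 and 4.88, and Thbs4, a secreted thrombospondin, and Iqgap2, a scaffold of the actin cytoskeleton, by 4.28 and 4.26 on the log2 scale. All 4 were above each region, and each had cortex as its nearest neighbour, at differences of 0.95, 1.37, 1.42 and 1.93. Rgs14, a regulator of G protein signalling enriched in CA2, rose by 4.46, but its difference from cortex was 0.93 and did not pass (edgeR adjusted p = 0.0536).

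Genes that mark the hippocampal subfields were examined as separate lists. Counts of list members, here and below, stand beside 15.3% higher and 10.6% lower over all genes tested. No list was tested as a set. For dentate granule cells, 16 of 20 listed genes were higher and 0 lower, with a median log2 fold change of 1.42 against 0.02 over all genes tested; 8 of the 20 were above each region. For CA1 and subiculum, 13 of 14 tested were higher and 0 lower (median 2.23), 4 of them above each region. Dcn, 1 of these 13, is also listed with meningeal genes, and its contrast was 1.38 in wild-type and 0.44 in knockout libraries. For CA3, 7 of 13 were higher and 0 lower (median 0.49), with 2 above each region. For CA2, 7 of 11 tested were higher and 2 lower (median 0.83), and 0 were above each region. Sostdc1, 1 of these 7, is also a choroid plexus marker, with 12.8, 1.51 and 10.4 CPM in hippocampus. Its call was lost without hippocampus WT 1 (edgeR adjusted p = 0.0638). It was also lost with the summed choroid plexus level as a covariate (1.33, edgeR adjusted p = 0.068), a sum that includes Sostdc1 itself. Avpr1b, a vasopressin receptor of CA2, was too low to test, with 0.702, 0.327 and 0.478 CPM in hippocampus against 0 to 0.0783 CPM in the other libraries, and Pou3f1 of the CA1 list had no count in any wild-type library.

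In the dentate list, C1ql2, a complement-like protein secreted at mossy fibre synapses, had 36.2, 39.3 and 31.3 CPM in hippocampus against 0 to 5.11 CPM (median 0.217) elsewhere. Prox1, the homeobox factor that sets granule cell identity, had 166, 215 and 162 CPM in hippocampus against 4.37 to 101 CPM (median 33.6). Both genes stood apart without overlap, at log2 fold changes of 6.32 ± 0.30 and 2.65 ± 0.14 (edgeR adjusted p = 3.32e-09 and 9.98e-09). Prox1 lay nearest to cerebellum (0.90), where it averaged 97.2 CPM. Glis3 (2.88), Trpc6 (1.82) and Rfx3 (1.01), a zinc finger factor, a cation channel and a factor of cilia genes, were also above each region. C1ql3 (2.80) and Bcl11b (2.23) rose against the mean but differed from cortex by 0.06 and 0.33, neither of which passed.

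In the CA3 list, Grik4, a high-affinity subunit of kainate receptors, had 73, 105 and 79.7 CPM in hippocampus against 8.59 to 31 CPM (median 16.6) elsewhere. Iyd, an iodotyrosine deiodinase, was low but separate, with 4.17, 4.52 and 3.35 CPM in hippocampus against 0 to 0.515 CPM (median 0.274). Grik4 rose by 2.35 ± 0.14 and Iyd by 3.97 ± 0.36 (edgeR adjusted p = 2.43e-08 and 1.40e-06), and both were above each region. Bok, a relative of BCL2, rose by 1.65 without passing against cortex (0.84). Cpne4, a calcium-dependent membrane-binding protein, averaged 298 CPM in olfactory bulb against 110, 96.6 and 93.4 CPM in hippocampus, and its log2 fold change of 1.36 included a cerebellum mean of 2.36 CPM. With CPM averaged over the 9 other libraries before the logarithm was taken, its difference was -0.33. St18, a zinc finger factor, was at 1.03 in the contrast and -0.68 with averaged CPM, and its cerebellum mean was 239 CPM.

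In the CA2 list, Necab2, a calcium-binding partner of receptors, had 60.2, 55.1 and 52.9 CPM in hippocampus, just above the highest of the other libraries at 51.9 CPM (lowest 1.35, median 46). Its log2 fold change of 1.64 ± 0.21 (edgeR adjusted p = 3.25e-05) passed, and the differences from cortex (0.27) and olfactory bulb (0.17) did not pass. Ntf3, the growth factor neurotrophin-3, had 5.93, 4.84 and 3.68 CPM in hippocampus against 0 to 6.06 CPM (median 0.783), and the groups overlapped in cerebellum. No Ntf3 count was found in the 3 olfactory bulb libraries, which puts hippocampus at least 65.2-fold higher there against a floor of 3 counts over the group. Amigo2, an adhesion molecule, rose by 0.72 and lost that call without hippocampus WT 1 (0.61). The 2 members that fell were Pcp4, a calmodulin-binding peptide (-1.39), and Cacng5, an auxiliary subunit of AMPA receptors (-2.29).

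In the CA1 list, Spink8, a member of the Kazal serine protease inhibitors, had 24.5, 12.6 and 11 CPM in hippocampus against 0 to 1.24 CPM (median 0) elsewhere. Lefty1, a secreted inhibitor of Nodal signalling, had 11.8, 5.63 and 4.16 CPM in hippocampus against 0.122 to 0.999 CPM (median 0.274). Gpr161, a receptor of primary cilia, had 60.2, 76.2 and 53.5 CPM in hippocampus against 3.61 to 15.7 CPM (median 8.55). Each was above each region with no overlap. Spink8 had no count in cerebellum, where hippocampus was at least 349-fold higher against a floor of 3 counts over the group; its fitted log2 fold change of 8.18 depends on the prior count, and with cerebellum at that floor it was 6.91. Lefty1 rose by 4.71 ± 0.38 and Gpr161 by 2.88 ± 0.15 (edgeR adjusted p = 4.59e-07 and 7.30e-09). Mpped1 (2.71) and Wfs1 (0.97), of which Wfs1 is a membrane protein of the endoplasmic reticulum used to outline CA1, rose against the mean but differed from cortex by 0.05 and -0.16.

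**Figure D2:**
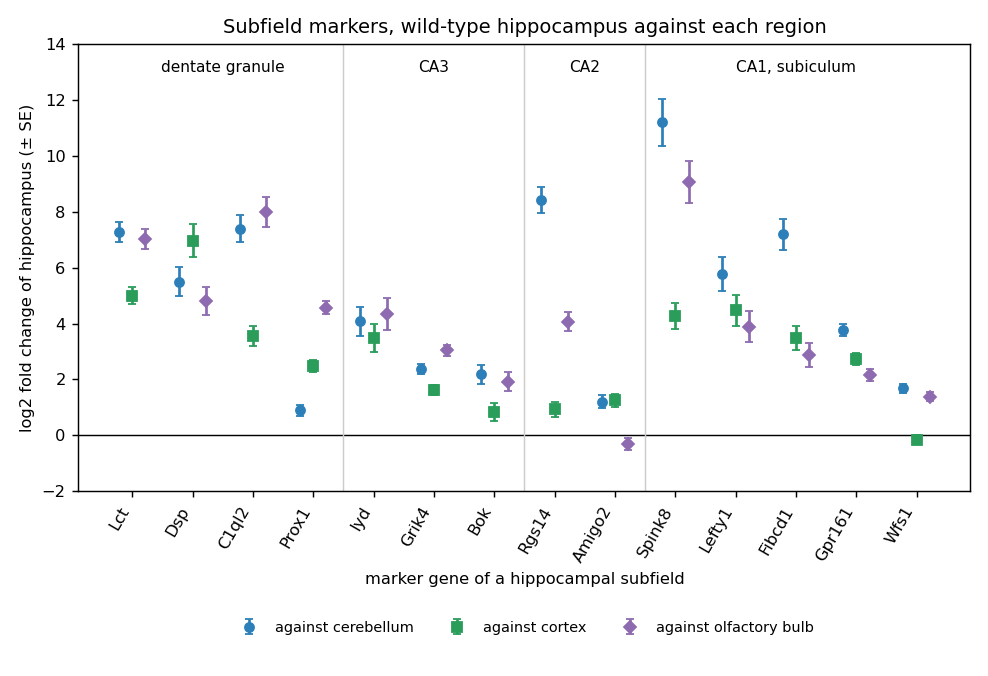
Log2 fold change (± SE) of wild-type hippocampus against cerebellum (circles), cortex (squares) and olfactory bulb (diamonds) for 14 markers of hippocampal subfields. Lct and Dsp exceeded all 3 regions by 4.82 or more, whereas Amigo2 lay below 0 against olfactory bulb and Wfs1 against cortex (-0.16), neither difference passing. The bars against cerebellum for Spink8 belong to a fitted value that depends on the prior count.

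Hilar mossy cells, the excitatory neurons of the dentate hilus, had members on both sides. Of 11 listed genes, 3 were higher and 3 lower (median -0.51). Ociad2 (1.15), an endosomal protein, and Csf2rb2 (1.71), a cytokine receptor subunit, rose. Calb2, the calcium buffer calretinin, fell, with 18.3, 25.5 and 21.2 CPM in hippocampus against 17.2 to 253 CPM (median 239) elsewhere (-2.49 ± 0.24, edgeR adjusted p = 2.47e-06); cortex overlapped it. Sv2c, a synaptic vesicle protein, was below each region, with 18.3, 20.9 and 22.6 CPM in hippocampus against 60.2 to 98.5 CPM (median 69.2) and no overlap (-1.87 ± 0.10, edgeR adjusted p = 1.30e-08). The dopamine receptor gene Drd2 and the peptide gene Gal had differences of -1.34 and -1.35 that did not pass (edgeR adjusted p = 0.0735 and 0.0952); Drd2 passed without cerebellum WT 2 or 3 (-1.47 each) and Gal without cortex WT 2 (-1.46).

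All 14 markers of telencephalic excitatory neurons were higher, with a median of 2.53, but the median difference from cortex alone was -0.00 over the same genes. Camk2a, the alpha subunit of calcium/calmodulin kinase II, had 2858, 3574 and 2956 CPM in hippocampus against 66.6 to 3138 CPM (median 653), with overlap in cortex. The log2 fold change of Camk2a was 2.56 ± 0.12, while its difference from cortex was 0.17. Neurod6 and Fezf2 alone among the 14 exceeded every region. Neurod6, a basic helix-loop-helix factor of maturing pyramidal neurons, had 156, 147 and 113 CPM in hippocampus against 0.624 to 65 CPM (median 2.75). Tbr1, a T-box factor of deep cortical layers, rose by 1.91 with a difference from cortex of -1.52; with averaged CPM it was at -0.10.

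Of 38 transcription factors of forebrain patterning tested, 24 were higher and 7 lower (median 0.76), with 4 above and 2 below each region. Zbtb20, a zinc finger factor that sets hippocampal identity in the mouse embryo, had 1043, 1324 and 1146 CPM in hippocampus against 285 to 688 CPM (median 533) elsewhere. Its log2 fold change was 1.25 ± 0.10 (edgeR adjusted p = 7.15e-07), with no overlap, and its largest difference was from cortex, 1.79. Meis1, a homeobox cofactor, had 3.32, 3.21 and 3.73 CPM in hippocampus against 8.28 to 163 CPM (median 99.4), and Cux1, a homeobox factor of upper layers, 53.1, 59.8 and 66.1 CPM against 131 to 232 CPM (median 217). Both lay below every other library, by -3.97 ± 0.18 and -1.67 ± 0.10 on the log2 scale (edgeR adjusted p = 2.94e-09 and 3.02e-08). Foxp2, a forkhead factor of deep cortical layers and Purkinje cells, was listed with the neocortex markers and was also below each region (-3.24). Emx1, a cortical homeobox factor, had no count in cerebellum, so that hippocampus was at least 165-fold higher there; its difference from cortex was -0.59 and did not pass.

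Subunits of ionotropic glutamate receptors and their partners moved both ways: of 28 genes, 13 were higher and 11 lower (median 0.16), with 5 above and 3 below each region. Gria1, the AMPA receptor subunit GluA1, had 1164, 1647 and 1161 CPM in hippocampus against 455 to 766 CPM (median 514). Grin2a, the NMDA receptor subunit GluN2A, had 331, 442 and 352 CPM in hippocampus against 97.8 to 218 CPM (median 119). Gria4, the AMPA subunit GluA4, went the other way, with 73.4, 79.4 and 95.4 CPM in hippocampus against 123 to 611 CPM (median 291). None of the 3 overlapped, and their log2 fold changes were 1.20 ± 0.10, 1.44 ± 0.09 and -1.80 ± 0.12 (edgeR adjusted p = 6.73e-07, 5.45e-08 and 7.40e-08). Among subunits, the obligatory NMDA subunit Grin1 differed by 0.02 ± 0.11 and did not pass, and Grin2b, GluN2B, rose by 1.85 with a difference from cortex of 0.28.

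The auxiliary subunits that bind AMPA receptors split as well. Cnih2, a cornichon that slows receptor closing, had 308, 204 and 186 CPM in hippocampus against 14.7 to 125 CPM (median 42), and Cacng8, the TARP gamma-8, had 75.7, 94.3 and 74.4 CPM against 5.46 to 43.1 CPM (median 24.7). Cacng7, another TARP, had 55.1, 79.2 and 69.1 CPM in hippocampus against 103 to 165 CPM (median 144). Cnih2 and Cacng8 were above each region (2.48 ± 0.16 and 2.14 ± 0.14) and Cacng7 below each (-0.96 ± 0.11), as was Neto2, a partner of kainate receptors (-0.95). For metabotropic receptors and Homer proteins, 5 of 10 were higher and 3 lower: Grm5, mGluR5, rose by 1.88, and Grm4, mGluR4, was below each region at 16.6, 18.5 and 20.6 CPM in hippocampus against 36.8 to 885 CPM (median 148).

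Of 15 GABA-A receptor subunits, 6 were higher and 3 lower (median -0.05). Gabra5, the alpha-5 subunit of extrasynaptic receptors, had 192, 150 and 132 CPM in hippocampus against 0.306 to 117 CPM (median 44.9), with no overlap; its 2.94 ± 0.30 (edgeR adjusted p = 1.10e-05) included a difference from olfactory bulb of 0.49 that did not pass. Gabrb1 alone in the list was above each region, with 133, 158 and 134 CPM in hippocampus against 36.1 to 104 CPM (median 46.2) and a log2 fold change of 1.33 ± 0.09. Gabrd, the delta subunit of tonic inhibition, fell by 1.73 on the log2 scale, its lowest other libraries being those of olfactory bulb (mean 22.6 CPM, difference -0.47, not passing).

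Kinases and phosphatases of synaptic plasticity were higher in 19 of 28 cases and lower in 4 (median 0.72), although the median difference from cortex alone was -0.09. Rasgrf1, an exchange factor that couples calcium to Ras, had 567, 773 and 598 CPM in hippocampus against 250 to 424 CPM (median 370). Rasgrf1 was above each region, at 0.94 ± 0.09. Itpka, a kinase of inositol trisphosphate in dendritic spines (2.55), and Ppp3ca, a catalytic subunit of calcineurin (1.15), rose without passing against cortex. Camk2d, the delta subunit of calcium/calmodulin kinase II, had 45.4, 47.5 and 88.9 CPM in hippocampus against 159 to 320 CPM (median 191), below each region by -1.82 ± 0.19.

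Of 18 postsynaptic scaffold genes, 13 were higher and 1 lower (median 0.50), 0 of them above each region. Kalrn, an exchange factor that shapes spines, rose by 1.53 and Dlgap2 by 1.51, and Dlg1, the scaffold SAP97, was below each region (-0.73). Of 29 synaptic organisers tested, 13 were higher and 6 lower (median 0.29), with 1 above each region, C1ql2, and 1 below each. Lrrtm1, a leucine-rich adhesion protein of excitatory synapses, had 90.4, 78.1 and 81.9 CPM in hippocampus against 3.2 to 65.4 CPM (median 27.4), and its relative Lrrtm3 had 27.7, 32.8 and 34.2 CPM against 53.1 to 153 CPM (median 80.1). The 2 relatives stood on opposite sides of the other regions without overlap, at 2.18 ± 0.20 and -1.46 ± 0.11, but Lrrtm1 did not pass against each region.

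Of ion channels that set dendritic excitability, 14 of 38 were higher and 11 lower (median 0.01). Kcnab2, a beta subunit of Kv1 channels, had 521, 581 and 493 CPM in hippocampus against 94.4 to 349 CPM (median 160). Kcnj6, the channel GIRK2, had 122, 157 and 114 CPM in hippocampus against 64.6 to 91.7 CPM (median 72.3). Kcnn2, the SK2 channel of the afterhyperpolarisation, had 82.3, 92.3 and 80 CPM in hippocampus against 41.6 to 63.1 CPM (median 50.1). These 3 were above each region, by 1.62 ± 0.11, 0.79 ± 0.11 and 0.75 ± 0.09. Dpp10, an auxiliary subunit of Kv4 channels, was below each region with 50.5, 57.7 and 73.2 CPM in hippocampus against 153 to 245 CPM (median 225), a log2 fold change of -1.76 ± 0.12. Kcnip2, another Kv4 partner, rose by 2.09, and Cacna1h, the T-type channel Cav3.2, by 2.11. Hcn4, a hyperpolarisation-activated channel, fell by 2.48 on the log2 scale.

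Receptors for serotonin, acetylcholine and monoamines were higher in 14 of 24 cases and lower in 4 (median 0.73), with a median of -0.60 against cortex alone. Beside Htr4, the genes above each region were Drd5, the dopamine D5 receptor, and Chrna7, the alpha-7 nicotinic subunit. Drd5 had 18.7, 17.3 and 13.2 CPM in hippocampus against 0.25 to 3.5 CPM (median 1.13), and Chrna7 had 33.9, 43.3 and 39 CPM against 7.41 to 18.3 CPM (median 11.9). Neither overlapped, at 3.66 ± 0.25 and 1.63 ± 0.12 (edgeR adjusted p = 8.60e-08 and 1.64e-07). Chrm1, the M1 muscarinic receptor (3.31), and the serotonin receptors Htr5b (3.10) and Htr1a (2.83) also rose, with differences from cortex that did not pass. Chrm2, the M2 muscarinic receptor, fell (-1.31).

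Neuropeptides and their receptors were higher in 19 of 31 cases tested and lower in 2 (median 1.18). Beside Npy2r, Sstr4, a somatostatin receptor, was above each region, with 64.1, 66.7 and 56.2 CPM in hippocampus against 0.377 to 29.4 CPM (median 11.5) and a log2 fold change of 3.34 ± 0.14 (edgeR adjusted p = 1.31e-09). The peptide genes Sst (3.23) and Cck (1.99) rose and differed from cortex by 0.17 and 0.20, neither passing. Penk, proenkephalin, was below each region, with 19.2, 15.6 and 13.1 CPM in hippocampus against 59.8 to 230 CPM (median 131), at -2.86 ± 0.16 (edgeR adjusted p = 1.71e-08). Adcyap1, the peptide PACAP, fell too (-1.21). Of 20 growth factors and their receptors, 4 were higher and 4 lower, against 15.3% higher and 10.6% lower over all genes tested, and the list was not tested as a set. Bdnf had 51.7, 37.2 and 37.1 CPM in hippocampus against 7.85 to 60.6 CPM (median 14.8), a rise of 1.18 with overlap in cortex.

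Among 13 genes of the corticosteroid response, 5 were higher and 1 lower (median 0.58). Nr3c2, the mineralocorticoid receptor, which binds corticosterone with high affinity in hippocampal neurons, had 265, 298 and 245 CPM in hippocampus against 39.1 to 89.7 CPM (median 58.9). Its log2 fold change was 2.20 ± 0.08 (edgeR adjusted p = 3.99e-10), with no overlap and a smallest difference of 1.74, against olfactory bulb. The glucocorticoid receptor Nr3c1, by contrast, had 126, 103 and 129 CPM in hippocampus against 68.6 to 186 CPM (median 152), a difference of -0.05 ± 0.10 that did not pass. Zbtb16 (1.40), a steroid-responsive zinc finger factor, was above each region, Fkbp5 (1.17), a chaperone of steroid receptors, and Hsd11b1 (1.46), which regenerates corticosterone, rose against the mean, and Crhr1, the receptor for corticotropin-releasing hormone, was below each region (-2.17).

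Of 32 axon guidance genes, 19 were higher and 7 lower (median 0.87), with 8 above and 3 below each region. Slit1, a repulsive ligand of Robo receptors, had 308, 456 and 349 CPM in hippocampus against 1.69 to 108 CPM (median 32.5), and its log2 fold change was 3.89 ± 0.30 (edgeR adjusted p = 1.13e-06). Nrp1, the receptor subunit for class 3 semaphorins, had 181, 186 and 180 CPM in hippocampus against 13.9 to 64.9 CPM (median 51.2), and Sema3a, a ligand that binds it, had 5.97, 5.24 and 9.89 CPM against 26.9 to 64.7 CPM (median 54.3). The receptor was above and the ligand below every other library, at 2.29 ± 0.12 and -2.69 ± 0.18 (edgeR adjusted p = 7.53e-09 and 8.23e-08).

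Of the Eph receptors, Epha4 had 502, 493 and 461 CPM in hippocampus against 33.8 to 305 CPM (median 95.3), and Epha6 had 283, 344 and 283 CPM against 13.6 to 181 CPM (median 89.8). Epha4, Epha6 and Epha7 were above each region, by 2.28 ± 0.07, 2.29 ± 0.10 and 2.07 ± 0.14. The other members above each region were Plxna4 (1.35), a semaphorin co-receptor, Sema5a (0.95) and Slit3 (1.62). Sema3f, a ligand of neuropilin-2 (-1.39), and Ntn4, a netrin (-1.92), were below each region, while Robo3 (3.12), a Robo-family receptor, rose without passing against cortex (0.40).

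**Figure D3:**
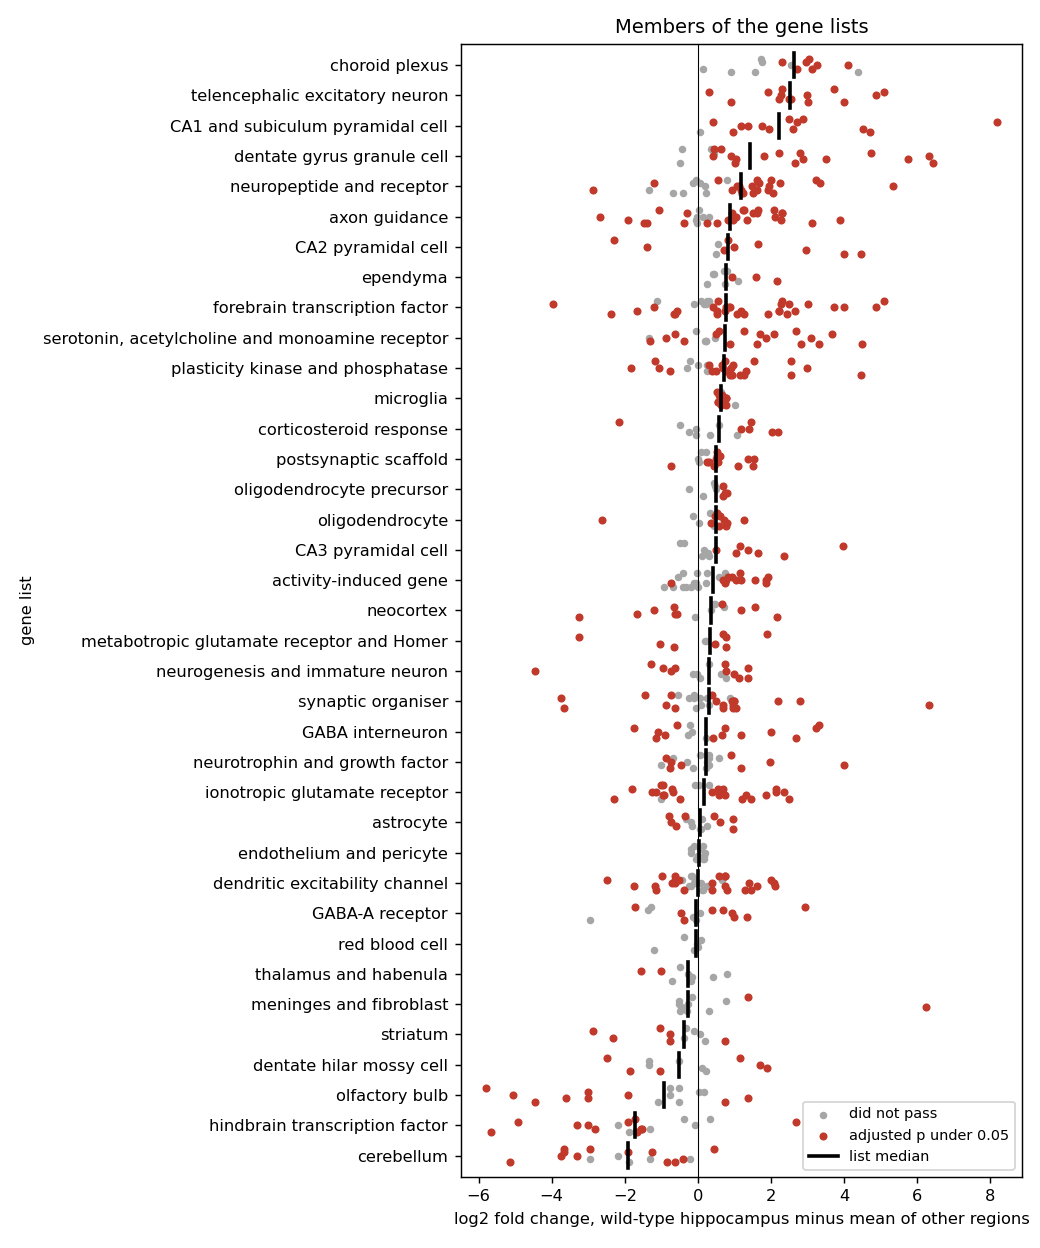
Log2 fold change of wild-type hippocampus minus the mean of the other regions for each tested member of the 37 gene lists, with red points for an adjusted p under 0.05, grey points for members that did not pass, and a bar at each list's median. The lists run from a median of 2.64 (choroid plexus) at the top to -1.92 (cerebellum) at the bottom; endothelium and pericyte has 0 of 12 members past the threshold.

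For GABA interneurons, 8 of 17 markers were higher and 5 lower (median 0.22). The genes of GABA synthesis and loading fell: Gad1, a glutamate decarboxylase, had 326, 266 and 301 CPM in hippocampus against 333 to 1675 CPM (median 453), and Slc32a1, the vesicular GABA transporter, had 42.9, 38.3 and 46.7 CPM against 51.9 to 138 CPM (median 86.6). Gad1 and Slc32a1 lay under all 9 other libraries, by -1.14 ± 0.12 and -1.10 ± 0.17, and Slc32a1 was below each region. Reln, the extracellular signal reelin, was below each region as well (-1.76). Lhx6, a homeobox factor of interneurons from the medial ganglionic eminence, rose by 3.30 and differed from cortex by -0.38, which did not pass.

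Markers of neurogenesis were divided, 6 of 17 tested being higher and 5 lower (median 0.31). Dcx, doublecortin of migrating neuroblasts, had 26.5, 36.3 and 48.3 CPM in hippocampus against 7.95 to 586 CPM (median 55.5), the highest in olfactory bulb, and fell by 0.95 on the log2 scale. The proliferation gene Mki67 had a difference of 0.76 that did not pass (edgeR adjusted p = 0.0607) but did in DESeq2 (adjusted p = 0.0383). Dlx2, a homeobox factor of migrating interneuron precursors, had no count in cerebellum, where hippocampus was at least 68.7-fold higher; hippocampus lay below cortex (-1.02) and olfactory bulb (-3.86), its fitted 1.36 depends on the prior count, and its difference with averaged CPM was -2.46. Of 28 activity-induced genes, 12 were higher and 1 lower (median 0.40), with 0 above each region. Nr4a3, an orphan nuclear receptor, had 120, 120 and 110 CPM in hippocampus against 15 to 71.4 CPM (median 26.5), a rise of 1.93 ± 0.22 without overlap. Plk2 (1.85), Egr3 (1.85) and Nr4a2 (1.57) rose as well. In the knockout libraries the contrast was 0.70 for Nr4a3, 1.55 for Plk2, 1.34 for Egr3 and 0.43 for Nr4a2. Fos (-0.94) and Arc (0.74) did not pass (edgeR adjusted p = 0.0763 and 0.0784), although both did in DESeq2 (adjusted p = 0.0253 and 0.0284).

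On the lower side, Ppp1r17, a phosphatase inhibitor of Purkinje cells, had 0.195, 0 and 0.0478 CPM in hippocampus against 0.391 to 110 CPM (median 2.91). Th, tyrosine hydroxylase of dopamine synthesis, had 0.273, 0.589 and 0.382 CPM in hippocampus against 2.51 to 132 CPM (median 4.5), the highest in olfactory bulb. Eomes, a T-box factor of mitral cells and of cerebellar unipolar brush cells, had 1.01, 0.654 and 0.908 CPM in hippocampus against 1.88 to 126 CPM (median 24.3). None overlapped, and the log2 fold changes were -5.63 ± 0.42, -5.06 ± 0.32 and -4.45 ± 0.25 (edgeR adjusted p = 2.01e-07, 4.02e-08 and 1.50e-08). Th and Eomes were below each region, and Ppp1r17 was not (largest adjusted p = 0.108), with a cortex mean of 0.44 CPM.

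The other 9 genes of this group were Tfap2b (-4.80), an AP-2 factor of cerebellar interneurons; Vipr2 (-4.46), a receptor for vasoactive intestinal peptide; Zfp385c (-4.10); Meis1 (-3.97); Grid2ip (-3.79), a partner of the Purkinje cell receptor GluD2; Cbln1 (-3.75), a synaptic organiser of cerebellar granule cells; Abi3bp (-3.46), an extracellular matrix protein; Ebf2 (-3.44); and Lgr5 (-3.44), a receptor for R-spondins. Of these, Zfp385c and Cbln1 did not pass against cortex. Abi3bp had 2.26, 3.01 and 3.82 CPM in hippocampus against 17.9 to 66.6 CPM (median 26.9), with differences of -3.05 from cerebellum, -3.02 from cortex and -4.32 from olfactory bulb. Lgr5 reached 192 CPM on average in olfactory bulb and 7.15 CPM in cortex, against 2.03, 3.01 and 3.11 CPM in hippocampus.

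Markers of the other regions were examined in the same way. Of 17 cerebellum markers, 11 were lower and 1 higher (median -1.92, or -2.18 with genes lacking counts in a region set at their floor), and of 18 hindbrain transcription factors tested, 10 were lower and 1 higher (median -1.72, or -1.82 with the same floor). Cbln3 and Fat2, of cerebellar granule cells, averaged 1087 and 2610 CPM in cerebellum, against 0.327 to 0.585 CPM and 1.05 to 2.25 CPM in hippocampus. Pcp2, of Purkinje cells, had 0.039, 0 and 0 CPM in hippocampus, and its call (-5.15) was lost without cortex WT 1 (-4.50). Zic1, a zinc finger factor of the dorsal neural tube, was below each region (-3.31). Of 16 olfactory bulb markers, 7 were lower and 2 higher (median -0.92), with Shisa3 at 0.039, 0 and 0.143 CPM in hippocampus against a mean of 73.8 CPM in olfactory bulb. Of 15 neocortex markers, 6 were lower and 4 higher, with a median difference of -1.26 from cortex alone.

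Neighbouring tissue that a dissection could bring in was looked at by markers. For thalamus and habenula, 0 of 9 tested genes were higher and 2 lower, Rora (-1.57) and Rgs16 (-1.02), against 10.6% lower over all genes tested. Summed over 12 markers, hippocampus held 220 to 262 CPM, against 282 to 894 CPM in the other wild-type libraries. In knockout hippocampus the sum was 230, 462 and 240 CPM, so knockout library 2 held more of these markers than the others. For striatum, 1 of 11 was higher and 5 lower, among them Adora2a, an adenosine receptor of striatal projection neurons (-2.33), which lay under all 9 other libraries. The list's median difference was -2.65 from cortex, 1.36 from cerebellum and 0.02 from olfactory bulb. Summed over the list, hippocampus held 328 to 404 CPM, against 379 to 456 CPM in cerebellum, 1005 to 1683 CPM in cortex and 362 to 393 CPM in olfactory bulb. For meninges, 2 of 12 were higher, against 15.3% of all genes tested, namely Crym and the matrix protein Dcn (1.38), and the list's median was -0.28. Dcn is also on the CA1 list. Summed over the list, hippocampus held 374 to 492 CPM, against 204 to 243 CPM in cerebellum, 216 to 372 CPM in cortex and 207 to 475 CPM in olfactory bulb, and Crym alone had 220, 170 and 135 CPM in hippocampus. Red blood cell genes (0 of 6) and endothelium and pericyte genes (0 of 12) did not pass in either direction, where 25.9% of all genes tested did.

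Glial markers were taken as 3 lists beside that of precursors. Of 13 microglia genes, 11 were higher and 0 lower (median 0.64), with a median difference of 1.88 from cerebellum, -0.13 from cortex and 0.25 from olfactory bulb. Cx3cr1, the fractalkine receptor, had 46.6, 40.2 and 44 CPM in hippocampus against 9.1 to 61.8 CPM (median 35.2), a rise of 0.77 with overlap. Of 14 oligodendrocyte genes, 9 were higher and 1 lower (median 0.50), with a median difference of 1.45 from olfactory bulb, 0.08 from cerebellum and 0.03 from cortex. Mal (0.80) and Opalin (1.27), both of myelin membranes, are examples of those higher, and Klk6 (-2.61) was the 1 lower. Of 15 astrocyte genes, 4 were higher and 4 lower (median 0.05). Among the 4 higher, Gfap, the astrocyte filament, had 258, 249 and 243 CPM in hippocampus against 83.7 to 213 CPM (median 127) and rose by 0.96 ± 0.14. Slc1a2, the glutamate transporter GLT-1, rose by 0.96. Of 9 genes of oligodendrocyte precursors tested, 4 were higher and 0 lower, and of 10 ependymal genes 3 were higher and 0 lower. Over all genes tested 15.3% were higher and 10.6% lower.

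Choroid plexus genes had the highest list median, 2.64, with 7 of 14 higher and 0 lower. Ttr, transthyretin, the main secretory product of that tissue, had 2107, 4.58 and 1601 CPM in hippocampus against 0.633 to 956 CPM (median 12.4) elsewhere, and its difference of 4.37 did not pass (edgeR adjusted p = 0.0867; DESeq2 adjusted p = 0.0233). Folr1, the folate receptor, passed at 4.10 with 12.4, 0.131 and 15 CPM in hippocampus, and lost that call in 6 of the 12 fits that left out 1 wild-type library (hippocampus WT 1 or 3, cortex WT 2, or any olfactory bulb library), at values of 3.57 to 4.82 over the 12 fits. In all 14 genes hippocampus WT 2 was the low library of the 3. When the summed choroid plexus level entered the fit, a check added once the libraries had been seen, the median of the list was 0.09. That level is summed over these same 14 markers, so the fall of their median follows in part from its construction and is no separate test. Among all genes tested in that fit, 2039 were higher and 1411 lower.

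In the 12 knockout libraries the same contrast called 896 genes at least 2-fold higher (5.34% of 16764 tested) and 463 lower (2.76%). Of the 1057 genes called higher in wild type, 1031 were tested in the knockout libraries, 1024 had the same sign and 758 were called, which is 71.7% of the wild-type list and 84.6% of the knockout list. Of the 572 called lower, 559 were tested, 557 had the same sign and 373 were called (65.2% of the wild-type and 80.6% of the knockout list). The median log2 fold change over the higher genes was 1.74 in knockout (1031 genes) and 1.67 in wild-type libraries (1057 genes), and over the lower genes -1.51 in knockout and -1.57 in wild-type libraries. The dentate list had a median of 1.66 in knockout and 1.42 in wild-type libraries, the CA3 list 0.73 and 0.49, and the CA1 list 1.85 and 2.23. Activity-induced genes had 0.05 in knockout and 0.40 in wild-type libraries, and neuropeptides and their receptors 0.74 and 1.18. List medians thus moved both ways, and not all were repeated at their size.

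Of the 1590 genes tested in both, 9 had opposite signs. The largest by their wild-type value were Kcne2 (3.31), Slc4a5 (3.27) and Cldn2 (3.03), a potassium channel subunit, a bicarbonate transporter and a tight junction protein of choroid plexus, with Oca2 (2.56), an ion transporter of melanosomes, and Trhr2 (-2.03), a receptor for thyrotropin-releasing hormone. In knockout libraries these were -1.65, -2.39, -0.77, -0.17 and 0.21, of which that of Slc4a5 passed (edgeR adjusted p = 0.0369). Of the 12 fits that left out 1 wild-type library, Kcne2 and Slc4a5 lost theirs in 9 each, Trhr2 in 7, Oca2 in 6 and Cldn2 in 1, without hippocampus WT 3 (2.10). Over those fits Kcne2 lay between 2.85 and 4.33, Slc4a5 between 2.46 and 4.35, and Trhr2 between -2.40 and -0.97, the value nearest 0 being that without cerebellum WT 1. All 5 also missed the threshold in limma voom. Summed choroid plexus markers were 49.6, 51.7 and 42.9 CPM in the knockout hippocampal libraries, against 2369, 43.4 and 2032 CPM in the wild-type ones, and the list's median was -1.76 in knockout and 2.64 in wild-type libraries. Under the choroid plexus covariate Kcne2 was at -0.50 in wild type, Trhr2 at -2.41 kept its call, and those of Slc4a5 (0.76), Cldn2 (0.82) and Oca2 (0.27) were lost. Slc4a5 and Cldn2 are among the markers summed in that covariate, so their loss follows in part from its construction.

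**Figure D4:**
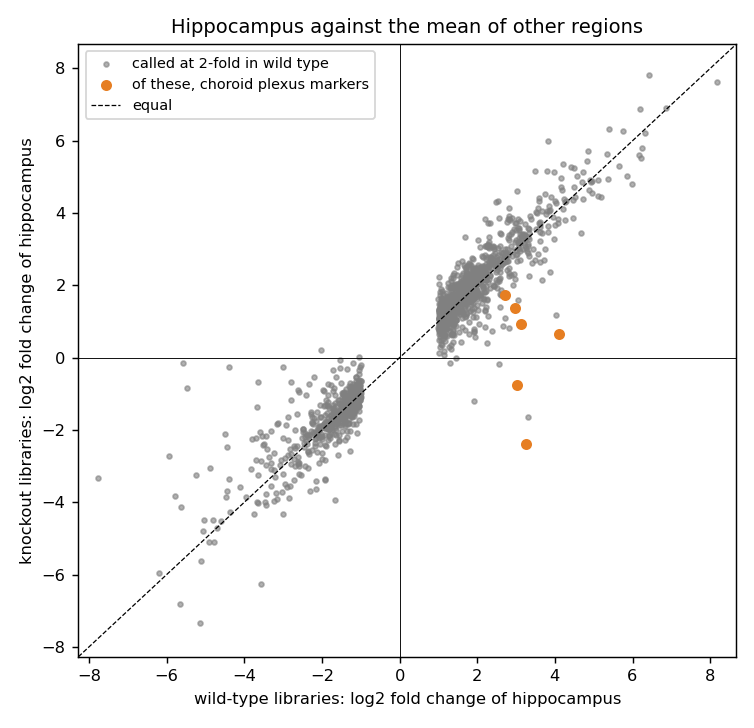
Log2 fold change of hippocampus against the mean of the other regions in the knockout libraries (vertical) and the wild-type libraries (horizontal), for the 1590 genes called at 2-fold in wild type and tested in both. Choroid plexus markers (orange) lie below the dashed line of equality, with Slc4a5 (-2.39) and Cldn2 (-0.77) under 0 in the knockout libraries, and genes within the 2-fold threshold on the horizontal axis are left out by construction.

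The difference between the knockout and the wild-type contrast was tested over all 24 libraries. By edgeR 1 of 17600 genes passed (0.00568%), and 221 (1.26%) had an unadjusted p under 0.05. The gene was Sulf1, an extracellular sulfatase that trims heparan sulfate, at -2.36 ± 0.37 (edgeR adjusted p = 0.0306). Sulf1 had 4.35, 7.08 and 4.44 CPM in knockout hippocampus, against 25, 9.55 and 44.3 CPM in wild-type hippocampus, and 22.8 to 37.5 CPM in the 9 other wild-type libraries. The 3 knockout hippocampal libraries were the lowest of all 24, and hippocampus WT 2, which held 43.4 CPM of choroid plexus markers, came next. With each of the 24 libraries left out in turn the difference lay between -2.72 and -1.73, and it passed in 6 of the 24 fits. The hippocampus contrast of Sulf1 was -2.49 in knockout and -0.17 in wild-type libraries, and the difference between them was -1.70 with the choroid plexus level as a covariate (edgeR adjusted p = 1). It was -2.16 in limma voom, -2.36 without the low-count filter, -2.33 with a replicate block and -2.39 with a covariate for reads outside genes, and was not called in these either.

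Cdr1as itself was lower in wild-type hippocampus than in the other regions, with 417, 368 and 720 CPM in hippocampus against 737 to 4271 CPM (median 982). The libraries did not overlap, and the log2 fold change was -1.61 ± 0.20 (edgeR adjusted p = 2.94e-05), of which the difference from cerebellum was -3.04, from cortex -0.97 and from olfactory bulb -0.81. The strict test against each region was not passed (adjusted p = 0.0709). Hippocampus WT 3, at 720 CPM, lay close to the lowest of the other libraries, at 737 CPM.

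**Figure D5:**
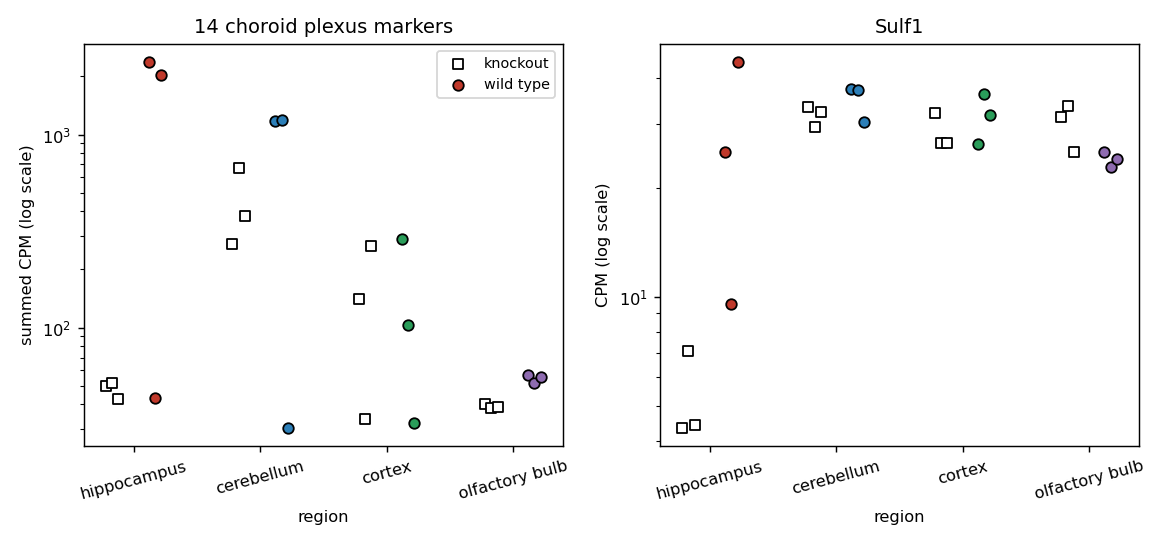
Summed CPM of 14 choroid plexus markers (left) and CPM of Sulf1 (right), on log axes, in each library of the 4 regions, with open squares for knockout and filled circles for wild type. Hippocampus WT 1 and 3 hold 2369 and 2032 CPM of choroid plexus markers, against 42.9 to 51.7 CPM in knockout hippocampus, and Sulf1 is lowest in the 3 knockout hippocampal libraries (4.35 to 7.08 CPM).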

How the data were processed

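Total RNA of dissected mouse brain regions was extracted with TRIzol, depleted of ribosomal RNA with RNase H and made into stranded libraries, per the labels' protocols. The tools named in the submitters' processing notes are HTSeq 0.6.1p1, STAR 2.5.1b and bcl2fastq 2.17.1.14, and the build is mm9; how strand was set in counting is not given in the sources used here, so reads of overlapping and antisense genes may not be separable. The authors deposited raw read counts per Ensembl gene, 1 table per library. The 5 summary entries of each table entered neither library sizes nor tests. Names came from the GENCODE annotation supplied, which is of another build, and were found for 32897 of 37620 Ensembl identifiers, so no coordinates are given.

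Counts were analysed in R 4.3.3 with edgeR 4.0.16 (TMM, filterByExpr by region, robust quasi-likelihood fit) over the 12 wild-type libraries, with p-values adjusted by Benjamini and Hochberg over all genes tested; tests are two-sided and the threshold was 0.05. SE is the size of the log2 fold change over the root of F. CPM was scaled within each genotype. Where a region had no count, bounds used a floor of 3 counts over the group, which covers counting error only. On simulated counts for 16631 genes, of which 200 changed 2-fold, 79% of these were called, 5.4% of the calls were false and the median size was 0.99. The changed genes were drawn only among genes above a minimum mean count, and libraries were simulated as independent. These shares therefore do not cover genes with few counts, or differences that libraries or genes share. The members, gene lists and tests were chosen with earlier results of these data known. Named genes were the 12 largest differences in each direction among called genes that averaged at least 1 on the log2 CPM scale and did not overlap, up to 5 called members of each list, or else the 2 with the smallest p, with others added where a list's role is described, Cdr1as, the smallest p-values of the genotype difference, and genes of opposite sign in the knockout. Some genes that this rule names are not reported here. DESeq2 1.42.0 and limma 3.58.1 were alternatives. No 2 libraries of a group agreed within sampling noise.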

Additional observations from a re-analysis of the deposited data

Results flagged for a closer look

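The contrast of Sulf1 between hippocampus and the other regions differed between genotypes by -2.36 on the log2 scale (knockout minus wild type, SE 0.37, edgeR adjusted p = 0.0306 over 17600 genes), as tested by the interaction over all 24 libraries. It was lower in 3 of 3 knockout hippocampal libraries than in each wild-type one. The next smallest p-values belonged to Cdr1as (2.34, adjusted p = 0.852), the deleted gene itself, and to Nr4a3 (-1.26), Clic6 (-4.62) and Nr4a2 (-1.18), with edgeR adjusted p = 1 each. Cdr1as lay at 0 to 0.659 CPM in every knockout library, so its knockout contrast rests on near-zero counts, and its value here is no measure of a regional difference in knockout tissue. Of these, Clic6 is a choroid plexus marker, with 0.922, 1.14 and 0.722 CPM in knockout hippocampus, against 27.7, 1.05 and 45.8 CPM in wild-type hippocampus. Summed choroid plexus markers were at 49.6, 51.7 and 42.9 CPM in knockout and 2369, 43.4 and 2032 CPM in wild-type hippocampus. Among the hippocampal libraries Sulf1 and the markers were both highest in WT 1 and 3. Sulf1 had its maximum in WT 3 and the markers in WT 1. Sulf1 was higher in WT 2, at 43.4 CPM of markers, than in the knockout libraries, at 42.9 to 51.7 CPM. Genotype and this marker level largely coincide in hippocampus, so a fit with both cannot tell them apart, and no cause was tested. With that level as a covariate edgeR called 0 genes and had 230 at an unadjusted p under 0.05; without it, DESeq2 called 3 and edgeR 1.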

How the results depend on the processing

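The 9 other libraries taken as 1 group without a region term gave 110 genes higher and 61 lower, and 90 and 38 at 2-fold; their spread then includes that between regions. A test against 2-fold itself called 478 higher and 230 lower, and the arithmetic mean of the regions gave 704 at 2-fold higher. DESeq2 called 294 genes above each region. Leaving out each library in turn gave 1913 to 2753 genes higher and 1181 to 2018 lower, 935 to 1142 and 454 to 664 at 2-fold, 128 to 203 above each region and 85 to 181 below each; the count below each was 93 without cortex WT 3 and 94 without hippocampus WT 2. The genotype difference called 3 genes by DESeq2 (Cdr1as 2.38, Sulf1 -2.35, Clic6 -4.74) and 0 by limma voom, without the low-count filter, with the replicate block, with a covariate for reads outside annotated genes and with the choroid plexus level (226, 391, 275, 282 and 230 genes at an unadjusted p under 0.05, in that order); leaving out each library gave 0 to 3. Without hippocampus WT 2 these were Sulf1, Clic6 and Steap2, and without hippocampus WT 3 Cdr1as (2.73) was the gene called. Deviations of same-numbered hippocampal and other libraries correlated at r = 0.32, 0.29 and -0.08 across genes, and those of different numbers at -0.41 to 0.17. For hippocampus WT 1 and 2 the same-numbered value was the highest, and for hippocampus WT 3 it was not. The labels do not say whether the numbers mark pairs, and the main fit did not pair them. The replicate block changed no other of these counts by over 1.5 times, with 2945 genes higher and 2132 lower.

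With the regions as 1 group or averaged before the logarithm, Cpne4 was at -0.33, Dlx2 at -2.46, St18 at -0.68 and Tbr1 at -0.10. With the choroid plexus level, an alternative chosen after seeing the data, Clic6 was at -0.16, Kcne2 at -0.50 and Ttr at -0.38. Clic6 and Ttr are among the markers summed in that level. Grin1 was at -0.00 with upper quartile scaling and between -0.11 and 0.12 with 1 library left out. With 1 library left out, Nr3c1 lay between -0.10 and 0.05 and Sulf1 between -0.76 and 0.23, both highest without hippocampus WT 2. Mki67 (0.78, edgeR adjusted p = 0.0286) and Fos (-0.94, 0.00667) passed with the replicate block; Arc passed in the fit of all 24 libraries (0.77, 0.0358), and Mki67 with the choroid plexus level (0.98, 0.0361) and with reads outside genes as a covariate (0.90, 0.0113). With the block, Cldn2, Folr1, Kcne2, Oca2 and Slc4a5 lost their calls (edgeR adjusted p = 0.0574, 0.078, 0.105, 0.0816 and 0.127). The cause of these changes was not tested. Genes under about 1 CPM rest on few reads, and olfactory bulb WT 1 was the shallowest library.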
